A study of Homo sapiens with 30 samples.

Results

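The response to an aged β-pinene aerosol was compared between the endothelial and the epithelial cells of the same cocultures. The measure was a difference of differences: the log2 change with SOAβPIN-SP against clean air (CA) in EA.hy926 cells minus that in A549 cells. A positive value means that a transcript rose more, or fell less, in EA.hy926 cells. It was tested for every gene counted 30 times or more in 3 or more libraries of both cell lines, which held for 9900 of the 18460 genes in the count tables. A further 1875 genes passed in A549 cells alone, 809 in EA.hy926 cells alone and 5876 in neither, and these were not tested. The 16 libraries compared were 4 per cell line and exposure, out of 30 in the series, and they came from 8 of its 15 cocultures.

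A549 is an epithelial line from a lung carcinoma and was grown on the apical side of a transwell membrane. EA.hy926 is a hybrid line made by fusing umbilical vein endothelial cells with an A549 derivative, and it was grown on the basolateral side. Cocultures were held at the air-liquid interface (ALI) for 4 h in CA or in SOAβPIN-SP, for which β-pinene, a terpene emitted by conifers, was mixed with soot particles (SP) and photochemically aged. The labels give 1 mg/ml of soot and 4 mg/ml of β-pinene, whereas the study's methods give the same figures per cubic metre of air. The A549 cells faced the aerosol and the EA.hy926 cells were reached only across the membrane, and no library of either line was exposed alone. Both libraries of a coculture carry the same experiment number: 24, 38, 42 and 53 for CA, and 34, 35, 37 and 38 for SOAβPIN-SP. Experiment 38 is thus the only one that holds both exposures, so elsewhere exposure and experiment cannot be told apart within a cell line. A shift shared by both libraries of a coculture cancels in the difference between the lines.

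Library totals ran from 7317041 to 15012539 reads, and replicate libraries correlated at r = 0.981 to 0.995 across genes. Epithelial markers summed to 15317 to 21034 CPM (counts scaled to library size) in A549 libraries and 1431 to 1969 CPM in EA.hy926 libraries, where CDH1 and ESRP1 were at or near 0 and KRT7, KRT8 and KRT18 made up nearly all of the sum. Endothelial markers summed to 2133 to 2541 CPM in EA.hy926 and 90.6 to 136 CPM in A549 libraries, mostly EGFL7 in the latter, and VWF and CLDN5 were near 0 in both lines. Of the leukocyte markers, LAPTM5 alone was high, at a mean of 337 CPM in the EA.hy926 libraries with CA. Reads of 43 genes high in A549 cells reached 0.483% of their A549 level in the EA.hy926 CA library of experiment 24 and 0.0962 to 0.125% in the other 7. Reads of 14 genes high in EA.hy926 cells reached 0.948% in the A549 CA library of experiment 38 and 0.0742 to 0.143% in the other 7.

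Cells answer oxidants, misfolded proteins and mechanical change with separate gene programmes. Immediate early genes such as FOS, JUN and ATF3 encode transcription factors that are induced within minutes of MAP kinase signalling and whose transcripts decay fast. Heat shock factor 1 drives chaperone genes, YAP with its TEAD partners drives CCN1, CCN2 and ANKRD1, and NF-kB drives cytokine genes together with its own inhibitor TNFAIP3.

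The response to SOAβPIN-SP differed between the lines for 1177 genes, 11.9% of those tested, with the adjusted p at or below 0.05 and the log2 difference no smaller than 0.5 in size (edgeR quasi-likelihood test, Benjamini-Hochberg adjustment over 9900 genes). The difference was positive for 738 genes (7.45%) and negative for 439 (4.43%), so 62.7% of the calls lay on the EA.hy926 side. With library totals alone as the scale that share was 48.8%, 606 positive and 635 negative, and the median difference of all genes moved from -0.03 to -0.09. A further 424 genes passed the adjusted p with a smaller difference. Because each library is a bulk measure of one line, fewer cells of a kind and less RNA per cell cannot be told apart in any of these values.

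By the change within each line in the same fit, 56 of the 1177 genes passed both thresholds in both lines with opposite signs. Another 314 falls and 117 rises passed both thresholds in A549 cells alone, and 191 rises and 134 falls passed them in EA.hy926 cells alone. In 29 genes both lines changed in the same direction but by unequal amounts, and 336 passed only as a difference, with a smaller change on each side of 0. The signs of the 2 changes were opposite in 826 of the called genes (70.2%) and in 39.3% of all genes tested, as a description, since the calls select for it. The line-specific classes rest on a threshold: of the 431 A549-specific genes, 284 had a change under 0.25 in size in EA.hy926 cells and 56 had an adjusted p of 0.05 or less there with a change under 0.5. Of the 325 EA.hy926-specific genes, these numbers were 227 and 35 for A549 cells.

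**Figure D1:**
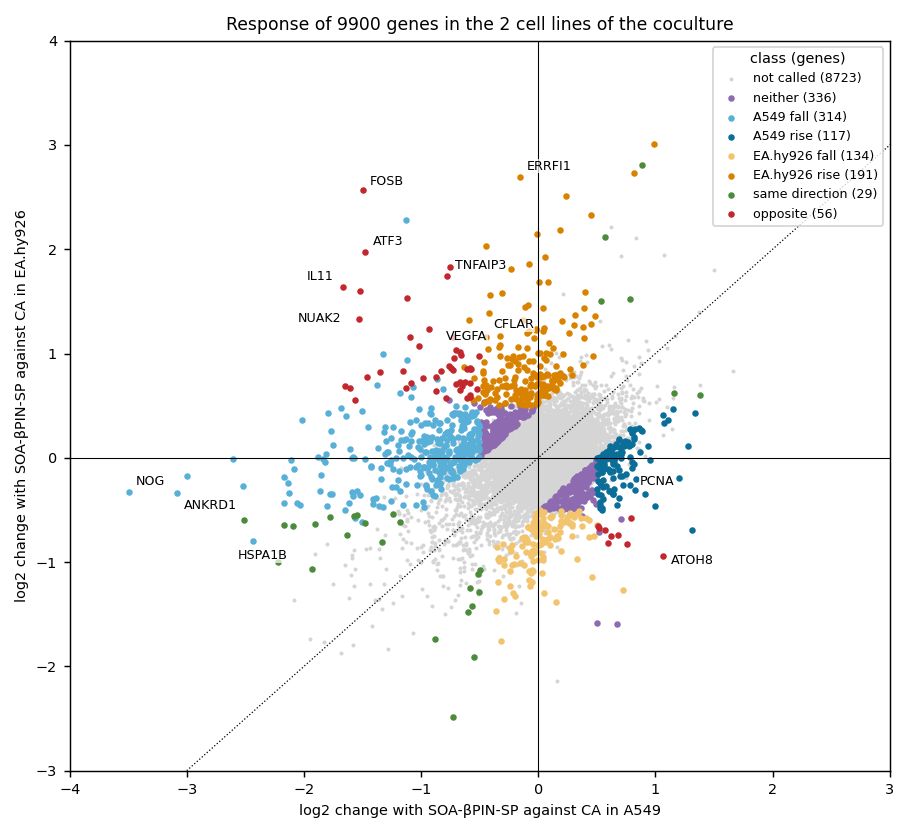
Each point is 1 of the 9900 genes tested, with its log2 change (SOAβPIN-SP against CA) in A549 cells on the horizontal axis and in EA.hy926 cells on the vertical axis; colours mark the class of genes called for a line difference and the dotted line marks equal change. The 47 opposite genes at the upper left fell in A549 and rose in EA.hy926 cells, while 9 at the lower right did the reverse.

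Within experiment 38 alone, where all 4 libraries share their experiment, the difference had the same sign as the fitted value in 1119 of the 1177 genes (95.1%, against 68.6% of all tested genes). Those 4 libraries are also part of the fit, so this is not an independent count. The values were smaller there: the median size over the called genes was 0.58 within the experiment and 0.77 in the fit, and 371 genes (31.5%) had less than 0.5 of the fitted value. The 4 coculture differences (EA.hy926 minus A549 in log2 CPM) with SOAβPIN-SP did not overlap the 4 with CA in 18.2% of all genes tested. They were above CA in 9.89% and below in 8.32%. In the opposite class the differences were separated in 56 of 56 genes, 47 above and 9 below, which follows in part from how the class was chosen.

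Of the 56 opposite genes, 47 fell in A549 cells and rose in EA.hy926 cells. The leading 8 were NUAK2, CHIC2, VEGFA, ZFAND2A, PFKFB3, TNFAIP3, ATF3 and GATA6, and in all 8 the libraries of both lines were separated by exposure without overlap. NUAK2, a stress-activated kinase of the AMPK family and a target of YAP, gave 100.3, 95.2, 151 and 148 CPM with CA and 40.9, 40.3, 37.8 and 51.7 with SOAβPIN-SP in A549 cells. In EA.hy926 cells it gave 7.84, 8.27, 7.89 and 9.17 CPM with CA and 23.4, 21.7, 18.5 and 20.03 with the aerosol, in the order of the experiment numbers, as in all lists of 4 values here. The transcript was far more abundant in A549 than in EA.hy926 cells with CA and moved towards the level of the other line in both. The changes were -1.53 (SE 0.15) and 1.33 (SE 0.18) on the log2 scale, a difference of 2.86 (SE 0.24, adjusted p = 1.69e-09).

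ATF3, a transcription factor induced by many stresses, showed the widest gap of the 8, a difference of 3.45 (SE 0.34, adjusted p = 3.99e-07). Its CPM in A549 cells were 241, 230.3, 307 and 431 with CA against 67.1, 118, 108 and 139.7, and in EA.hy926 cells 29.9, 42.98, 38.5 and 36.6 against 142, 159.6, 155 and 123. With CA the A549 libraries held the higher ATF3 levels, whereas with SOAβPIN-SP the 2 lines overlapped. TNFAIP3, the ubiquitin-editing inhibitor of NF-kB, was the reverse in level, with 35.98, 28.1, 41.3 and 34.1 CPM in EA.hy926 cells with CA and 133, 122, 128 and 85.5 with SOAβPIN-SP. In A549 cells it was low throughout, at 7.53, 9.38, 10.4 and 10.1 CPM with CA and 5.99, 4.99, 5.796 and 5.28 with the aerosol. The lines moved further apart, with a difference of 2.52 (SE 0.27, adjusted p = 3.4e-07).

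VEGFA, the angiogenic growth factor, fell in A549 cells from 118, 141, 133 and 130.1 to 72.3, 84.8, 72.4 and 98.9 CPM. It rose in EA.hy926 cells from 14.3, 17.3, 15.2 and 15.8 to 26.8, 33.2, 34.3 and 29.8 CPM, a difference of 1.65 (SE 0.16). PFKFB3, whose product raises glycolytic flux through fructose 2,6-bisphosphate, moved likewise, from 615, 526, 626 and 633 to 386, 425, 407 and 473 CPM in A549 cells. Its EA.hy926 values were 105, 113, 174 and 124 with CA and 224, 284, 279 and 224 with the aerosol, a difference of 1.48 (SE 0.16). For both genes the A549 libraries kept the higher level under each exposure.

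ZFAND2A, a zinc finger protein of the proteasome that is induced by arsenite, gave 56.4, 43.3, 67.2 and 81.5 CPM with CA and 27.3, 28.5, 29.1 and 28.4 with SOAβPIN-SP in A549 cells. In EA.hy926 cells the values were 23.05, 20.9, 20.9 and 26.3 with CA and 35.3, 37.6, 35.4 and 37.1 with the aerosol, so the order of the lines turned over between the exposures. The same turnover occurred for GATA6, a zinc finger transcription factor, in the means: 22.8 ± 2.58 and 14.3 ± 1.64 CPM in A549 cells, and 11.1 ± 1.74 and 22.6 ± 4.63 in EA.hy926 cells (SD, n = 4). CHIC2, a membrane-associated palmitoylated protein, fell to 20.3 ± 0.968 from 33.6 ± 2.499 CPM in A549 cells and rose to 129 ± 6.91 from 71.9 ± 9.102 in EA.hy926 cells. The 3 differences were 1.80, 1.69 and 1.57, with adjusted p of 8.72e-08, 5.5e-07 and 8.48e-09 (edgeR).

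**Figure D2:**
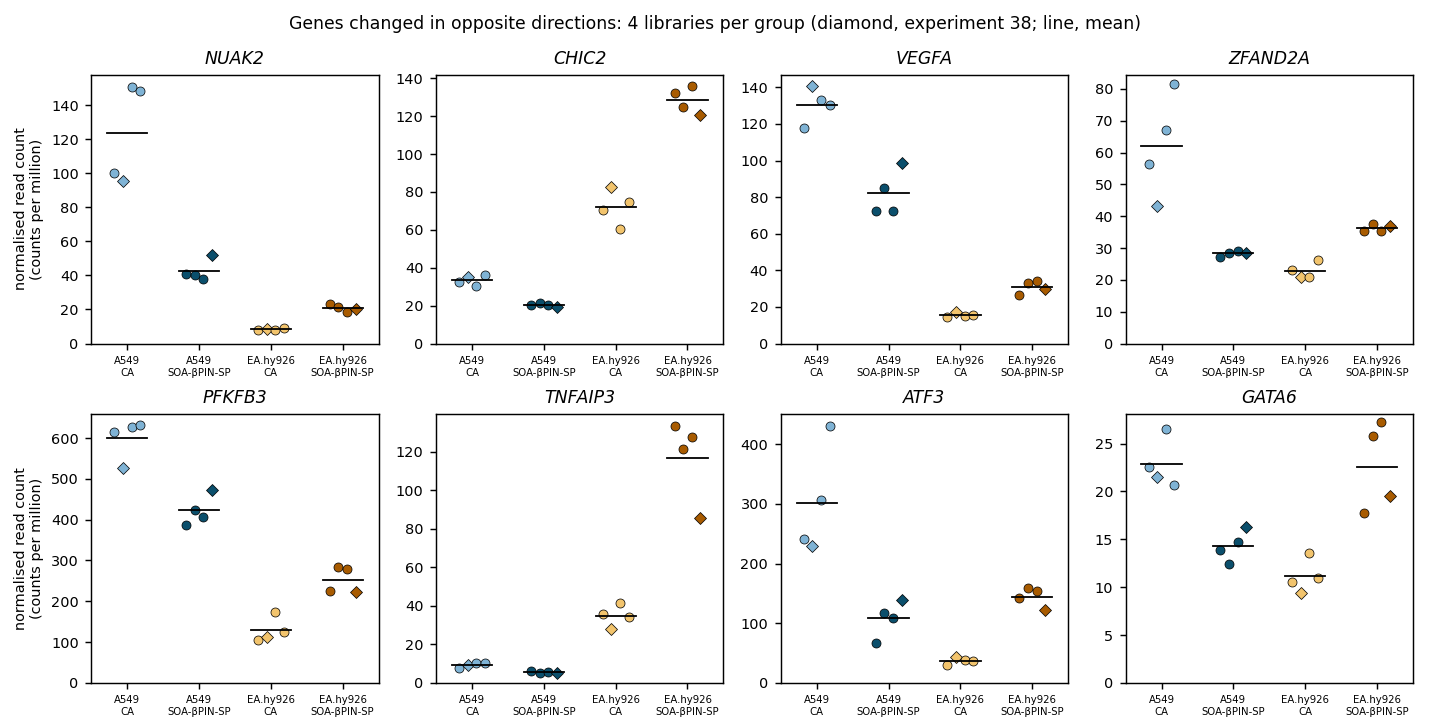
Normalised read counts (CPM, linear axes from 0) of the 8 leading opposite genes in each of 4 libraries per cell line and exposure; diamonds mark experiment 38 and lines the group means. In every panel the SOAβPIN-SP libraries lie below CA in A549 cells and above CA in EA.hy926 cells, without overlap.

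Experiment 38 gave the same directions for all 8, but smaller A549 changes for most: -0.88 for NUAK2, -0.72 for ATF3 and -0.15 for PFKFB3. Over the 56 genes, the libraries of both lines were separated by exposure in opposite directions in 35 (1.34% of all tested genes), a count that the choice of the class on these libraries favours and from which nothing is read. In experiment 38, 46 of the 56 had both signs as fitted. The other 10 (FOSB, TNFRSF10D, CSRNP1, RSRC2, TRIB1, CITED2, CLK1, NAA16, ZNF827 and SERTAD2) had an A549 value above 0 in that experiment, from 0.02 for SERTAD2 to 0.41 for FOSB, while their line difference kept its sign.

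FOSB, an AP-1 subunit, showed the widest gap of the class, 4.06 (SE 0.55, adjusted p = 2.22e-05), and was chosen for mention after its values were seen. Its CPM were 466, 212, 1036 and 939 with CA and 192, 280.2, 183 and 283 with SOAβPIN-SP in A549 cells, which overlapped, and 8.78, 5.75, 11.2 and 10.2 against 55.4, 55.6, 55.01 and 47.8 in EA.hy926 cells, which did not. IL11, an IL-6 family cytokine, fell from 121, 82.6, 124 and 247 to 20.8, 56.6, 41.7 and 58.7 CPM in A549 cells. Its EA.hy926 levels were 3.28, 3.06, 7.397 and 9.65 with CA and 21.6, 17.8, 19.97 and 13.2 with the aerosol, a difference of 3.31 (SE 0.59, adjusted p = 0.000427). MAFF, a small MAF transcription factor, differed by 2.25 (SE 0.27) and TIPARP, a mono-ADP-ribosyltransferase that represses the aryl hydrocarbon receptor, by 1.45 (SE 0.23). The other genes of this kind included the transcription factors JUNB, NR4A3, ETS1, ID3, CSRNP1 and ARID5B, the matricellular protein CCN1, the calcineurin regulator RCAN1, the phosphatase DUSP1 and the splicing kinases CLK1 and CLK4. Over all 47 the difference ran from 1.17 to 4.06.

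The 9 genes of the reverse kind, higher in A549 and lower in EA.hy926 cells, were ATOH8, MEGF9, PPP1R12B, BCL3, PLCD4, RGS14, NAPEPLD, TACC2 and IRF2. Their differences lay between -2.01 and -1.17. ATOH8, a basic helix-loop-helix transcription factor, had the largest: 6.72, 5.46, 5.02 and 3.98 CPM with CA and 17.1, 7.26, 14.8 and 6.86 with SOAβPIN-SP in A549 cells, and 14.1, 17.4, 22.8 and 10.1 with CA and 5.07, 9.31, 9.04 and 9.93 with the aerosol in EA.hy926 cells. BCL3, an atypical IκB protein that binds NF-kB subunits, gave 165, 116, 171 and 151 CPM with CA and 283, 208, 238 and 185 with the aerosol in A549 cells. In EA.hy926 cells it gave 27.00, 19.7, 25.5 and 27.01 with CA and 12.99, 13.96, 15.7 and 13.7 with the aerosol, a difference of -1.42 (SE 0.21), which is opposite in sign to that of the NF-kB inhibitor TNFAIP3.

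The promoter windows of the opposite genes were compared with those of all tested genes, as a description. A window is the stretch from 250 bases before to 50 after a transcription start, from RefSeq on GRCh38.p14, and the first window listed per gene was used. Windows were found for 46 of the 56 genes and for 8013 of the tested symbols. The cAMP response element, CRE (TGACGTCA, the palindromic site bound by CREB and ATF factors), was present in 4 of 39 windows (10.3%) of genes lower in A549 and higher in EA.hy926 cells. The share was 3.61% of tested genes and 1.98% of all 27305 windows, and it was 0 of 7 among the reverse kind. Of the 8 motifs searched, the CRE was singled out after the shares were seen; the E-box (CACGTG) was present in 7 of the 39 windows (17.9%) and 10.8% of tested genes. The 4 CRE windows are shown for the element and its surroundings, in lower case with the CRE in capitals, 5′ to 3′ on the strand of the gene.
MAFF: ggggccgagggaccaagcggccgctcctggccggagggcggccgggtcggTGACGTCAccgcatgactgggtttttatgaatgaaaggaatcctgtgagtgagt
STK38L: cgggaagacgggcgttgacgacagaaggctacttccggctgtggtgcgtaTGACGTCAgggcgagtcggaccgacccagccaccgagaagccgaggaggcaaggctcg
DUSP1: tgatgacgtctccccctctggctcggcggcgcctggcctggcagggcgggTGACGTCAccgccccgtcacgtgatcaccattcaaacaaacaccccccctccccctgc
CCNL1: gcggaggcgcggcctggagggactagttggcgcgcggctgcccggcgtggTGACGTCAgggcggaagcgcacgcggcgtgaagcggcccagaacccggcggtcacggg
The element began 54 bases before the start in MAFF (chr22:38201890-38201993, plus strand), 170 in STK38L (chr12:27244066-27244173, plus strand), 125 in DUSP1 (chr5:172771263-172771370, minus strand) and 86 in CCNL1 (chr3:157160176-157160283, minus strand). STK38L encodes a kinase of the LATS family and CCNL1 a cyclin of splicing. The AP-1 site (TGANTCA) was present in 2 of the 39 windows (5.13%) and in 4.09% of tested genes. A match is a run of letters, and binding was not measured.

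TNFAIP3 is shown for its matches to a loose NF-kB pattern (GGG, then 5 free bases, then CC, on either strand) that occurs in 74.7% of the windows of tested genes and 71.7% of those of the opposite class. The stretch lies at chr6:137867027-137867258 on the plus strand, and its matches, some overlapping, are in capitals.
TNFAIP3: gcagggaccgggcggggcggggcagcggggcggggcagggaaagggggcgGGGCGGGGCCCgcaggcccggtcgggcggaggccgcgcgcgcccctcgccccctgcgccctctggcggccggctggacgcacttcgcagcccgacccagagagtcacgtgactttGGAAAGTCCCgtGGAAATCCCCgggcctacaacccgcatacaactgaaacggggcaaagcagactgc
The last match begins 55 bases before the start, separated by 2 bases from the one before it.

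The A549-specific falls were 314 genes with a median change of -0.87 in A549 and 0.05 in EA.hy926 cells. Actin genes were among its leaders. ACTG1, cytoplasmic γ-actin, fell in A549 cells from 8369, 7549, 8223 and 8707 to 5088, 5837, 5924 and 5909 CPM. In EA.hy926 cells its values were 4748, 4778, 4875 and 4544 with CA and 5284, 6627, 7034 and 6798 with the aerosol, which did not overlap but stayed under the size threshold (log2 change 0.44). ACTB, β-actin, differed by 0.80 (SE 0.10) after ACTG1 with 0.97 (SE 0.11, adjusted p = 6.34e-07). FHL2, a LIM-domain protein of focal adhesions, gave 60.4, 48.8, 47.1 and 65.1 CPM with CA and 24.99, 30.1, 29.4 and 32.1 with the aerosol in A549 cells. Its EA.hy926 values, 33.03, 35.1, 38.3 and 50.2 with CA and 44.9, 58.5, 55.3 and 58.8 with the aerosol, overlapped. Both actins have processed pseudogenes, and only uniquely mapped reads were counted.

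CLCN4, an endosomal chloride-proton exchanger, had the smallest p of the class, with 38.7, 39.8, 42.6 and 37.2 CPM with CA and 11.7, 12.4, 14.6 and 16.6 with SOAβPIN-SP in A549 cells. In EA.hy926 cells it gave 12.8, 16.5, 16.6 and 12.2 CPM with CA and 13.6, 24.3, 21.8 and 19.4 with the aerosol, a difference of 1.95 (SE 0.21, adjusted p = 2e-07). BCL10, an adaptor that links CARD receptors to NF-kB, was at 26.5, 21.9, 22.1 and 32.9 CPM with CA and 11.3, 11.1, 10.5 and 14.2 with the aerosol in A549 cells, and its EA.hy926 libraries overlapped (log2 change 0.18, SE 0.11). The contractile and actin-binding list had 7 of 21 tested members called (33.3%, against 11.9% of all tested genes), all with a positive difference. Over all called genes, 62.7% had a positive difference. Besides the actins, the focal adhesion protein ZYX (1.34), the actin-gene regulator SRF (1.18), TPM1 (1.35) and CNN2 (1.05) fell in A549 cells.

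Most heat shock chaperones fell in A549 cells with little change in EA.hy926 cells. Of the 20 members, all tested, 15 were called (75%, against 11.9% of all tested genes). Every call was positive, and 14 were in the A549-fall class. The median difference of the list was 0.88, with a median change of -0.91 in A549 and -0.09 in EA.hy926 cells, against medians of -0.03, 0.03 and 0.01 over all genes tested. AHSA1, which activates the ATPase of HSP90, gave 675, 515, 658 and 707 CPM with CA and 257, 273, 256 and 293 with SOAβPIN-SP in A549 cells. In EA.hy926 cells it gave 670.4, 589, 627 and 640.1 with CA and 587, 600.1, 585 and 569 with the aerosol. HSP90AB1, the constitutive cytosolic HSP90, fell from 2833, 2110.2, 3291 and 3128 to 1512, 1795, 1561 and 1710.2 CPM in A549 cells. Its EA.hy926 libraries held 1471, 1497, 1523 and 1317 with CA and 1577, 1592, 1583 and 1588 with the aerosol, a log2 change of 0.13 (SE 0.10).

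The widest gap among the chaperones was that of HSPB8, a small heat shock protein that works with BAG3, at 2.25 (SE 0.37). HSPB1 differed by 1.47, HSPH1 by 1.40, DNAJB1 by 1.24, BAG3 by 1.21 and the mitochondrial pair HSPD1 and HSPE1 by 0.72 and 0.96. HSPA1A and HSPA1B, the inducible HSP70 genes, are near-identical copies whose reads can be split between them. Their log2 changes in A549 cells were -2.22 and -2.44, and HSPA1A also fell in EA.hy926 cells (-0.998). HSPA8, HSPA4, HSPA9, STIP1 and DNAJA1 were not called, with differences of 0.02 to 0.47. In experiment 38 the differences of the 15 called members all stayed positive but ranged from 0.34 for BAG3 to 1.41 for HSPB8.

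A heat shock element of 3 units (GAA, TTC and GAA, each 2 free bases apart, on either strand) was searched for after the list was seen to be called. It was present in 3 of 19 windows of the list (15.8%) and 0.30% of the tested genes. Among the called members it was in CHORDC1, an HSP90 co-chaperone that differed by 0.84 (SE 0.17), where overlapping matches in capitals begin 60 bases before the start (chr11:90223050-90223159, minus strand).
CHORDC1: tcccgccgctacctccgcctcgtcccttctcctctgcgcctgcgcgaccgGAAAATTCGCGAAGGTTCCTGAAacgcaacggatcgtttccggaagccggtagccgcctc
The other matches of the list were in HSPA8 and DNAJA1, neither of which was called.

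The YAP and TEAD list had 10 of 21 tested members called (47.6%, against 11.9% of all tested genes), all positive, and a median difference of 0.57. Of the calls, 7 were A549 falls, NUAK2 and CCN1 were opposite, and WWTR1, which encodes the YAP paralogue TAZ, rose in EA.hy926 cells. ANKRD1, a nuclear ankyrin-repeat protein, had 75.8, 59.3, 96.6 and 117 CPM with CA and 8.18, 9.32, 5.69 and 16.8 with SOAβPIN-SP in A549 cells. In EA.hy926 cells it was far higher and overlapped between exposures, 514, 472, 389.9 and 363 with CA and 274, 387, 375 and 338 with the aerosol, giving a difference of 2.74 (SE 0.37, adjusted p = 1.46e-05). CCN2 differed by 2.23 (SE 0.34) and AMOTL2 by 1.87 (SE 0.29). AJUBA, a LIM protein that binds LATS kinases, fell in both lines, with changes of -1.42 in A549 and -1.61 in EA.hy926 cells, and was not called for a difference.

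**Figure D3:**
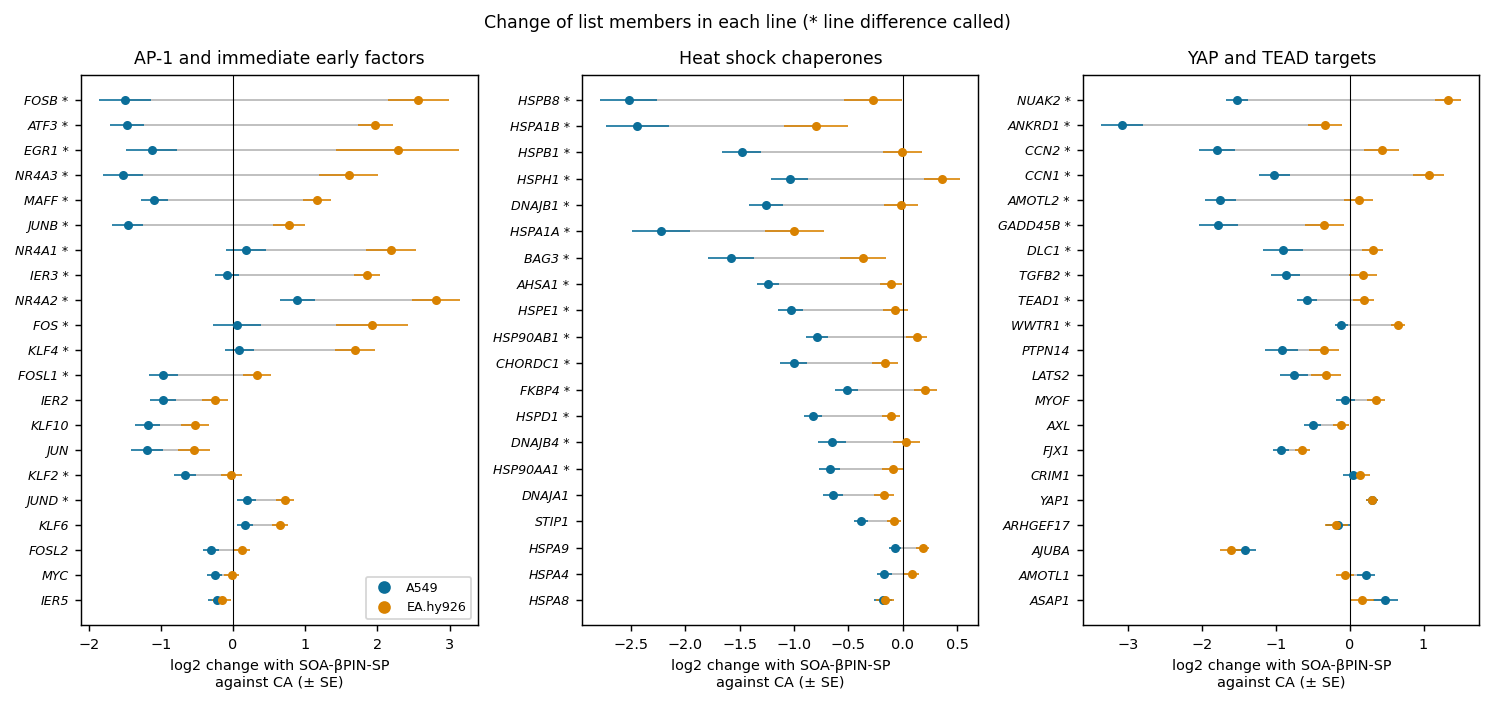
Log2 change with SOAβPIN-SP against CA in A549 (blue) and EA.hy926 cells (orange), with bars of 1 SE, for every tested member of 3 gene lists, ordered by the line difference; an asterisk marks a called difference. Most called chaperones lie to the left of 0 in A549 cells and nearer to 0 in EA.hy926 cells, whereas for immediate early factors such as ATF3 and FOSB the orange points also lie to the right of 0.

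Secreted and growth-control genes were also in this class. NOG, a secreted BMP antagonist, fell the most of the named genes, from 10.2, 6.604, 6.097 and 15.9 to 0.438, 0.8802, 0.316 and 1.498 CPM in A549 cells. Its EA.hy926 values were 77.2, 75.8, 96.1 and 92.6 with CA and 74.6, 66.4, 69.1 and 61.8 with the aerosol, a difference of 3.17 (SE 0.37). NOG was much higher in EA.hy926 cells, and without the 2 libraries with most reads of the other line (A549 CA of experiment 38 and EA.hy926 CA of experiment 24) the difference was 3.28. The protease MMP10 and the protease inhibitor TIMP3 differed by 2.17 and 1.25 (adjusted p = 0.000106 and 0.000667, edgeR). They were the only 2 of 29 tested matrix and integrin genes called (6.9%, against 11.9% of all tested genes). Within experiment 38 the differences were 0.57 for MMP10, 1.33 for TIMP3 and 1.72 for NOG. TIMP3 was low in A549 cells, at 7.03, 6.99, 6.69 and 10.6 CPM with CA and 2.78, 4.11, 2.42 and 2.76 with the aerosol. In EA.hy926 cells it ran from 357 to 462 CPM. The A549 CA library of experiment 38 held most EA.hy926 reads (0.948%), and their part in these experiment 38 values was not tested.

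Of 21 tested p53 targets 7 were called (33.3%, against 11.9% of all tested genes), all positive, and 5 of them were A549 falls. CDKN1A, the cell-cycle inhibitor p21, gave 1278, 1201, 993 and 1149 CPM with CA and 471, 669, 669 and 585 with SOAβPIN-SP in A549 cells, and 250.3, 307, 355 and 279 with CA and 290.4, 368, 362 and 344 with the aerosol in EA.hy926 cells. BBC3, the pro-apoptotic PUMA, differed by 0.87 (SE 0.16). In the clock list, CRY1, a repressor of the circadian loop, fell in A549 cells from 108, 94.6, 107 and 112 to 39.6, 58.6, 41.7 and 48.3 CPM and overlapped in EA.hy926 cells (13.8, 12.2, 13.3 and 12.9 with CA and 12.1, 13.3, 15.5 and 11.4 with the aerosol). CEBPG, a C/EBP transcription factor of the integrated stress response, differed by 0.67 (SE 0.13).

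The 117 A549-specific rises had a median change of 0.64 in A549 and -0.02 in EA.hy926 cells. B3GNT2, which builds poly-N-acetyllactosamine chains, rose in A549 cells from 53.2, 49.4, 51.5 and 49.1 to 84.04, 96.02, 84.3 and 83.9 CPM and lay at 18.2, 14.7, 17.1 and 15.8 with CA and 11.9, 13.3, 13.8 and 15.9 with the aerosol in EA.hy926 cells. PCNA, the replication clamp, rose from 333, 340.1, 231 and 244 to 515, 542, 504 and 442 CPM, with overlapping EA.hy926 libraries (275, 280.3, 292 and 294 with CA and 234, 274, 266 and 289.6 with the aerosol). Its difference was -0.90 (SE 0.15) in the fit and -0.33 within experiment 38.

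The other leading A549 rises had EA.hy926 values below CA that fell just short of the size threshold. MED22, a Mediator subunit, gave 15.1, 17.6, 18.3 and 16.5 CPM with CA and 27.3, 25.7, 22.8 and 23.03 with the aerosol in A549 cells and 46.4, 47.7, 45.9 and 50.9 with CA and 33.2, 33.5, 33.3 and 35.01 with the aerosol in EA.hy926 cells. TNFRSF1A, the main TNF receptor, gave 299.6, 277, 300.2 and 242 CPM with CA and 447, 361, 458 and 343 with the aerosol in A549 cells, and 295, 262, 269.6 and 317 with CA and 203, 212, 209 and 212 with the aerosol in EA.hy926 cells. MAP3K11, a kinase upstream of JNK, had log2 changes of 0.55 and -0.48. In all 3 genes the libraries of both lines were separated by exposure in opposite directions, and the differences were -1.04, -0.97 and -1.02.

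Respiratory chain and replication lists held few calls on this side. UQCRC2 and SDHA, subunits of complexes III and II, were the only 2 of 36 respiratory chain genes called (5.56%), at -0.52 and -0.54. Both lay close to the size threshold, at -0.41 without the CA coculture of experiment 53 and -0.42 without the SOAβPIN-SP coculture of experiment 37. SLC7A2, a cationic amino acid transporter, rose in A549 cells (1.10, SE 0.18) and differed by -0.74 (adjusted p = 0.0325), which was lost in 11 of 24 fits that left out a library or a coculture. Of 38 tested replication and mitosis genes 5 were called (13.2%, near the 11.9% of all tested genes). E2F2, a transcription factor of S phase entry, fell in EA.hy926 cells from 13.6, 17.7, 16.7 and 11.1 to 5.87, 8.87, 9.61 and 10.7 CPM (difference -1.23, SE 0.29).

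The 191 EA.hy926-specific rises had a median change of 0.77 in EA.hy926 and -0.08 in A549 cells. CFLAR and ERRFI1 had the smallest p of all genes tested (adjusted p = 2.23e-11 for both). CFLAR, the caspase-8 inhibitor c-FLIP, rose from 90.2, 85.8, 95.6 and 87.5 to 188, 203, 210.2 and 199 CPM in EA.hy926 cells. In A549 cells its values were 53.3, 44.1, 53.7 and 55.3 with CA and 39.2, 37.8, 33.9 and 40.4 with the aerosol, a change of -0.45 that stayed under the size threshold. ERRFI1, a feedback inhibitor of the EGF receptor, rose from 70.1, 74.1, 65.3 and 56.4 to 502, 428, 449 and 343 CPM. Its A549 libraries overlapped, at 309.5, 339.7, 346 and 335 with CA and 258, 360.4, 245 and 326 with SOAβPIN-SP, so the order of the lines turned over in the means. The difference was 2.85 (SE 0.19) in the fit and 2.27 within experiment 38.

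Feedback regulators of MAP kinase signalling accompanied ERRFI1. Of 18 tested members of that list 9 were called positive and 1 negative, 7 of them EA.hy926 rises. The called share was 55.6%, against 11.9% of all tested genes. SPRY4, an inhibitor of receptor tyrosine kinase signalling, gave 11.7, 10.2, 12.99 and 12.6 CPM with CA and 39.7, 30.1, 42.6 and 30.95 with SOAβPIN-SP in EA.hy926 cells, and 20.6, 22.5, 29.2 and 29.7 with CA and 30.5, 34.5, 33.7 and 34.9 with the aerosol in A549 cells. SPRY4 was thus higher with the aerosol in both lines, and its A549 change of 0.40 (adjusted p = 0.0334, edgeR) was under the size threshold. The EGF receptor ligands AREG (1.67), HBEGF (1.81) and TGFA (0.78) and the phosphatase DUSP8 (1.54) passed the thresholds in EA.hy926 cells alone. For HBEGF the value within experiment 38 was 0.22. ETV4, an ETS factor downstream of this pathway, was the negative call, at -0.52.

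Among 21 tested immediate early factors 14 were called (66.7%, against 11.9% of all tested genes), all positive, with a median difference of 1.60. Of these, 5 were opposite (ATF3, MAFF, FOSB, JUNB and NR4A3), 5 were EA.hy926 rises (IER3, KLF4, NR4A1, FOS and JUND), and EGR1, FOSL1 and KLF2 were A549 falls. EGR1 had the larger value in EA.hy926 cells, 2.28 (SE 0.85), which did not pass the test there. NR4A2 rose in both lines and more in EA.hy926 cells. JUN, MYC, IER2, KLF6 and KLF10 were not called. For FOS and FOSL1 the difference was 1.87 and 1.30 in the fit and 0.21 and 0.15 within experiment 38, and the part of the experiment in these fitted values was not tested.

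In the NF-kB list 6 of 17 tested members were called positive and 1 negative (41.2% called, against 11.9% of all tested genes). RELB, an NF-kB subunit, differed by 1.18, with separated coculture differences. CXCL8, the neutrophil chemokine IL-8, was higher with the aerosol in every library of both lines, 33.7, 46.04, 53.8 and 29.3 CPM with CA against 66.4, 81.4, 74.2 and 98.02 in A549 cells and 13.3, 8.18, 16.7 and 20.9 against 226, 68.5, 126 and 55.8 in EA.hy926 cells. Its A549 change of 0.99 just missed the test (adjusted p = 0.0507, edgeR), and its line difference of 2.02 came with coculture differences that overlapped between exposures. BIRC3, an inhibitor of apoptosis, differed by 2.17 but was low in EA.hy926 cells, at 0.536, 0.539, 0.904 and 2.25 CPM with CA and 12.01, 2.81, 2.64 and 1.41 with the aerosol, which overlapped. Without the EA.hy926 SOAβPIN-SP library of experiment 34 BIRC3 was not called (1.12, adjusted p = 0.119, edgeR), and CXCL8 differed by 1.51 (adjusted p = 0.0351). IRF1, an interferon-response transcription factor, fell in EA.hy926 cells and differed by -0.89. In the hypoxia and glycolysis list 8 of 26 were called (30.8%), all positive. Beside VEGFA and PFKFB3, KDM3A, SLC2A3 and ENO2 rose in EA.hy926 cells, ANKRD37 and ADM fell in A549 cells, and NDRG1 passed only as a difference (0.70). PPP1R15A, the GADD34 subunit that dephosphorylates eIF2α, rose in EA.hy926 cells from 102, 166, 137 and 125 to 415, 403, 383 and 379 CPM, and its A549 libraries overlapped (830.0, 683, 1235 and 1143 with CA and 601, 811, 669 and 1051 with the aerosol). Its difference was 1.89 (SE 0.29) in the fit and 0.57 within experiment 38.

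Other EA.hy926 rises were of varied function. SNHG7, a host RNA of small nucleolar RNAs, gave 81.5, 93.3, 79.4 and 79.8 CPM with CA and 172, 165, 163 and 154 with SOAβPIN-SP, and 127, 129, 136 and 135 with CA and 112, 111, 119 and 111 with the aerosol in A549 cells. CLK3, a kinase of SR splicing factors, rose from 19.6, 16.6, 22.3 and 15.7 to 46.3, 42.5, 45.4 and 41.5 CPM with overlapping A549 libraries (change 0.04, SE 0.10). MARCHF5, a ubiquitin ligase of the outer mitochondrial membrane, differed by 0.95 (SE 0.11) and SNHG3 by 1.09 (SE 0.23). HHEX, a homeobox factor of endothelial development, rose from 69.8, 55.8, 46.7 and 42.2 to 103, 108, 118 and 95.4 CPM with overlapping A549 libraries. NFIL3, a transcriptional repressor of the clock, differed by 1.15, the TGF-β receptor TGFBR1 by 0.89 and MYLIP, which degrades the LDL receptor, by 0.97 (adjusted p = 0.000129, 0.000129 and 0.0105, edgeR).

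**Figure D4:**
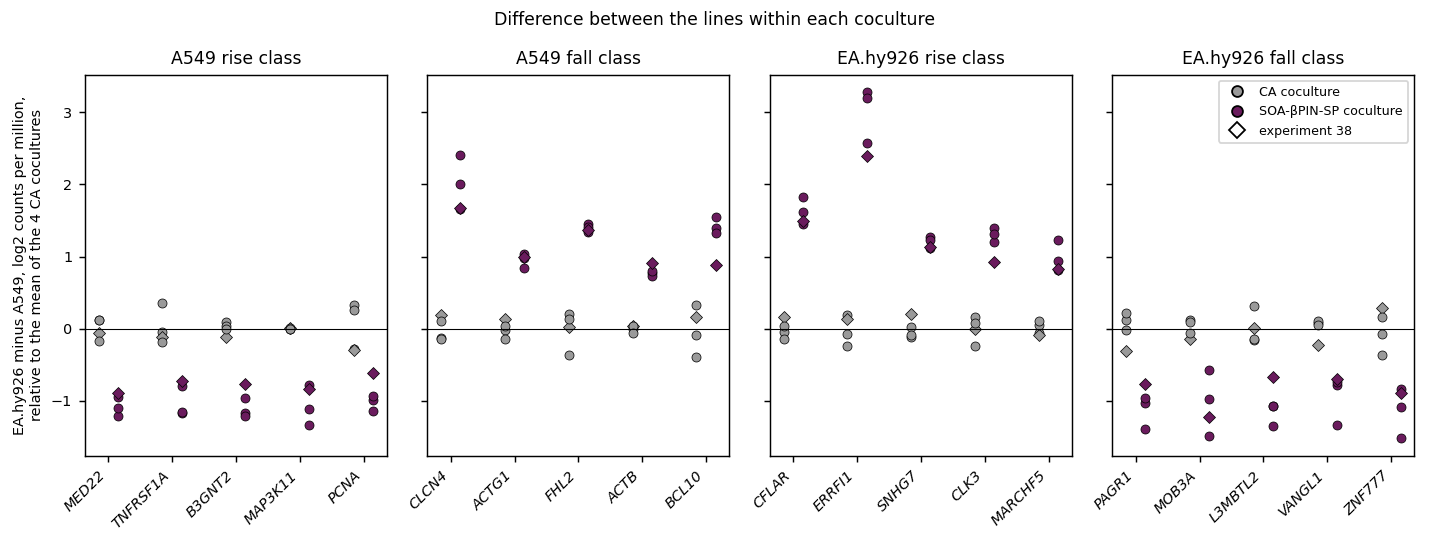
Difference between the lines within each coculture, EA.hy926 minus A549 in log2 CPM, relative to the mean of the 4 CA cocultures (grey); purple points are the 4 SOAβPIN-SP cocultures and diamonds mark experiment 38. For each of the 20 line-specific genes the SOAβPIN-SP points lie on one side of the CA points, which is how these genes were chosen.

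The 134 EA.hy926-specific falls had a median change of -0.77 in EA.hy926 and 0.00 in A549 cells. MOB3A, of the MOB kinase activator family, fell from 41.1, 37.4, 40.2 and 37.5 to 17.9, 17.7, 17.8 and 15.97 CPM in EA.hy926 cells and gave 18.8, 20.6, 20.9 and 17.5 with CA and 25.3, 13.2, 17.5 and 18.7 with the aerosol in A549 cells, which overlapped. PAGR1, a subunit of a histone H3 lysine 4 methyltransferase complex, fell from 34.6, 28.2, 32.96 and 36.02 to 18.2, 17.7, 19.6 and 23.2 CPM. ZNF777, a zinc finger protein, gave 15.7, 20.4, 20.1 and 23.2 CPM with CA and 8.81, 7.55, 5.65 and 10.1 with the aerosol. L3MBTL2, a polycomb group protein, and VANGL1, a planar cell polarity protein, differed by -1.03 and -0.87. These 5 genes differed by -1.09 to -0.87. In A549 cells L3MBTL2, VANGL1 and PAGR1 changed by 0.37, 0.30 and 0.29, under the size threshold. L3MBTL2 and VANGL1 passed the adjusted p there (0.0219 and 0.0267, edgeR). The A549 libraries of L3MBTL2 and PAGR1 were separated by exposure, higher with the aerosol. ZNF777 changed by -0.22 and MOB3A by -0.08 in A549 cells.

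In the same-direction class of 29 genes, KRT80, a type II keratin, fell in both lines but further in A549 cells, from 874, 842, 917 and 1107 to 115, 159, 134 and 245 CPM there and from 244, 259, 322 and 287 to 155, 179, 215 and 186 in EA.hy926 cells. CCDC68, a centriole protein, rose in both and more in EA.hy926 cells (0.57 and 2.12). ZNF587B fell by 0.55 and by 1.91 on the log2 scale. The class was the least stable in number: it held 18 genes without the A549 SOAβPIN-SP library of experiment 37, 18 without both libraries of experiment 35 and 12 without both of experiment 37.

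The 336 genes that passed only as a difference were split evenly, 168 in each direction. KRT18, an epithelial keratin, was abundant in A549 cells, with 3198, 3386, 3342 and 3164 CPM with CA and 4644, 4158, 4793 and 3999.9 with SOAβPIN-SP in A549 cells and 438, 402, 416 and 483 with CA and 426, 415, 383 and 377 with the aerosol in EA.hy926 cells (difference -0.55, SE 0.10). SAMD9, an interferon-stimulated gene, differed by 0.78, the sterol synthesis enzyme NSDHL by -0.56 and the cholesterol carrier STARD4 by 0.63.

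AKR1B10 and ALDH3A1, reductase and dehydrogenase genes of NRF2 and aryl hydrocarbon receptor signalling, were also in this class but rest on 1 library. AKR1B10 gave 3926, 4455, 4355 and 2884 CPM with CA and 6884, 5697, 6411 and 5927 with the aerosol in A549 cells, and 19.8, 1.53, 2.79 and 2.09 with CA and 1.33, 2.11, 2.35 and 3.31 with the aerosol in EA.hy926 cells. The one high EA.hy926 value was the CA library of experiment 24, the same in which A549 reads were most frequent. The differences of -2.27 and -2.09 shrank to -0.58 in each without that library (adjusted p = 0.339 and 0.492). With the coculture as a replicate block neither was called (adjusted p = 0.132 and 0.116). ABCC2, an NRF2-regulated efflux pump in the EA.hy926-fall class, was called at -0.82 (adjusted p = 0.01) with under 5 CPM in every EA.hy926 library, and was not called without the same library (-0.56, adjusted p = 0.0781).

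**Figure D5:**
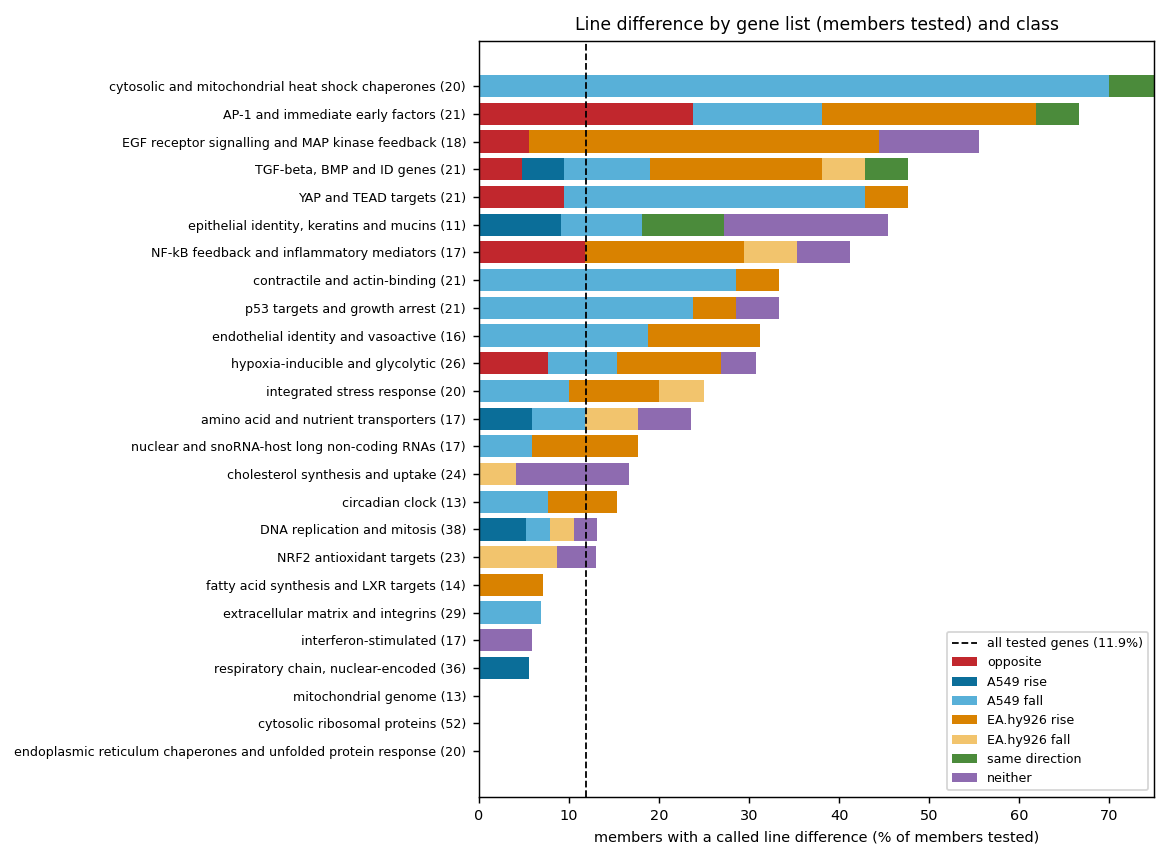
Share of the tested members of each gene list with at least 10 tested (number in brackets) with a called line difference, coloured by class; the dashed line is the 11.9% of all tested genes. Heat shock chaperones reached 75.0% and immediate early factors 66.7%, and 3 lists had no call.

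Several other lists lay near or below the 11.9% of all genes. No member was called among 52 cytosolic ribosomal protein genes, 20 endoplasmic reticulum chaperone and unfolded protein genes, 13 genes of the mitochondrial genome and 4 metallothionein and zinc genes. In the NRF2 list 3 of 23 were called (13%), all negative (ABCC2, AKR1B10 and SLC7A11). The interferon list had 1 of 17 called (5.88%) and the fatty acid and LXR list 1 of 14 (7.14%). Further lists lay above the 11.9%: epithelial (5 of 11 called, 45.5%), endothelial (5 of 16, 31.2%) and transporter (4 of 17, 23.5%). Above it too were the cholesterol (4 of 24, 16.7%), clock (2 of 13, 15.4%), non-coding RNA (3 of 17, 17.6%) and aryl hydrocarbon receptor lists (2 of 4, 50%). The TGF-β, BMP and ID list, with 8 positive and 2 negative calls among 21 (47.6%), also lay above it. So did the integrated stress response list, with 4 and 1 among 20 (25%). Of the 2 aryl hydrocarbon receptor calls, ALDH3A1 was lost without the EA.hy926 CA library of experiment 24 (-0.58, adjusted p = 0.492, edgeR). AKR1B10 and ABCC2 of the NRF2 list were also not called without that library.

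Gene structure differed between the classes in GENCODE v44 (GRCh38), as a description. The median span was 24.9 kb with 6 exons for A549 falls and 23.97 kb with 6 exons for EA.hy926 falls, against 46.5 kb with 14 exons for A549 rises and 52.96 kb with 9 exons for EA.hy926 rises. Opposite genes had a median of 51.4 kb and 8 exons, and all tested genes 33.1 kb and 9 exons. Among A549 falls the AP-1 site was present in 9.02% of the promoter windows, against 4.09% of tested genes and 5.13% of the A549-lower opposite genes.

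Few genes were called as differing between the aerosols in their line difference. The line difference with SOAβPIN-SP was set against that with SP, and then against that with SOANAP-SP, made from naphthalene instead of β-pinene, in the same fit. It differed from SP for 7 genes (0.0707% of those tested, 737 genes at an unadjusted p under 0.05 in edgeR) and from SOANAP-SP for 178 (1.80%), 60 higher and 118 lower. No experiment held 2 aerosols, so aerosol and experiment cannot be told apart in these values. NUAK2 was 1 of the 7, with a line difference of 2.86 for SOAβPIN-SP, 1.60 for SP and 2.37 for SOANAP-SP, all against the same CA libraries. ATF3 gave 3.45, 2.17 and 2.14, and MAFF 2.25, 1.19 and 0.93. Against SOANAP-SP, 5 opposite genes were called (ATF3, CCN1, CITED2, DUSP1 and MAFF), all with the larger gap under SOAβPIN-SP, by 1.01 to 1.33. TNFAIP3 (2.52, 1.97 and 2.57), IL11 (3.31, 1.90 and 3.28) and CHIC2 (1.57, 1.12 and 1.25) were not called in either of these comparisons, which does not show that the aerosols acted alike. Set against CA, the line difference with SOANAP-SP was called with the same sign in 50 of the 56 opposite genes. With SP it was called so in 41 of them. Over all 9900 tested genes, 1326 were called with SOANAP-SP and 440 with SP. The CA libraries are shared by all 3 aerosols, and SP had fewer libraries per line.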

How the data were processed

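Poly-A RNA-seq count tables for the 30 libraries were used. Per the study's methods, the authors deposited raw read counts per gene from uniquely mapped, UMI-deduplicated reads counted with htseq-count on GRCh38, whereas the submitters' processing notes name STAR 2.7.3a and the mouse build GRCm38. Gene identifiers are human. The strand setting is not given in the sources used here, so reads of overlapping antisense genes, GATA6 among them, cannot be told apart. Normalised tables were not used.

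Both lines' tables were joined on the gene identifier. Genes counted 30 times or more in 3 or more libraries of both lines were fitted with edgeR 4.0.16 in R 4.3.3 (TMM, robust quasi-likelihood, 8 groups, no block). The study's methods corrected for the sequencing batch. The labels do not name that batch, so it was not in the fit and no value here is corrected for it. Calls needed an adjusted p at or below 0.05 and a log2 difference no smaller than 0.5 in size. Counts per library size (CPM) are TMM-scaled. Values within experiment 38 used a prior count of 2. Library totals of 7317041 to 15012539 reads limit precision for low genes. The main fit took both libraries of a coculture as separate, so its p-values measure the spread between libraries within these groups. The labels do not say whether cocultures came from separate passages.

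Named genes were, by smallest p, 8 opposite genes, 5 rises and 5 falls specific to each line with coculture differences separated by exposure, 3 same-direction genes and at most 2 called members of each list. Members and lists were chosen with earlier results of these data known. Both libraries of a coculture are paired by the experiment and exposure in their titles, and the correlation of their deviations from group means ran from -0.19 to 0.38. Alternatives were this block, the 16 libraries alone, limma-voom (limma 3.58.1), DESeq2 1.42.0, other scalings and filters, and leaving out libraries or cocultures. Leaving out the 2 libraries with most reads of the other line was chosen after seeing the data. On simulated data for the line difference over 9900 genes, 85 of 100 genes changed by log2 1 and 100 of 100 changed by log2 2 were recovered, and 9 unchanged genes were called. The simulated counts held no experiment effect and no pairing within cocultures. They therefore cannot show how often experiment alone would give a call. Promoter windows were searched on both strands in Python 3.11.15. Of the genes the rule named, 2 are not reported here.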

Additional observations from a re-analysis of the deposited data

Results flagged for a closer look

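The response to SOAβPIN-SP differed between the cell lines, by the test of the difference itself, for the 62 genes given here, which the rule named, and the values are log2 differences, EA.hy926 minus A549. In the opposite class these were ATF3 (3.45), IL11 (3.31), NUAK2 (2.86), TNFAIP3 (2.52), MAFF (2.25), ZFAND2A (1.80), GATA6 (1.69), VEGFA (1.65), CHIC2 (1.57), PFKFB3 (1.48) and TIPARP (1.45). Of the genes with a fall past both thresholds in A549 cells alone they were NOG (3.17), ANKRD1 (2.74), MMP10 (2.17), CLCN4 (1.95), FHL2 (1.39), BCL10 (1.31), TIMP3 (1.25), CRY1 (1.15), CDKN1A (1.14), AHSA1 (1.13), ACTG1 (0.97), HSP90AB1 (0.91), BBC3 (0.87), ACTB (0.80) and CEBPG (0.67), and of those with such a rise UQCRC2 (-0.52), SDHA (-0.54), SLC7A2 (-0.74), PCNA (-0.90), TNFRSF1A (-0.97), MAP3K11 (-1.02), B3GNT2 (-1.04) and MED22 (-1.04). Genes with a rise past both thresholds in EA.hy926 cells alone were ERRFI1 (2.85), PPP1R15A (1.89), CFLAR (1.60), CLK3 (1.20), SPRY4 (1.19), SNHG7 (1.19), NFIL3 (1.15), HHEX (1.11), SNHG3 (1.09), MYLIP (0.97), MARCHF5 (0.95) and TGFBR1 (0.89), and those with such a fall were ABCC2 (-0.82), VANGL1 (-0.87), L3MBTL2 (-1.03), PAGR1 (-1.04), ZNF777 (-1.08), MOB3A (-1.09) and E2F2 (-1.23). Genes changed in the same direction in both lines were KRT80 (1.91), CCDC68 (1.55) and ZNF587B (-1.36), and genes that passed only as a difference were SAMD9 (0.78), STARD4 (0.63), KRT18 (-0.55), NSDHL (-0.56), ALDH3A1 (-2.09) and AKR1B10 (-2.27).

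In 9 of 256 combinations of a named gene and a group of 4 libraries, 1 library lay far from the other 3 (by the 95% critical value of the Dixon test), where chance alone flags about 1 in 20 groups. CFLAR was at 44.1 CPM in A549 CA replicate 2, against 53.3 to 55.3 in the other 3. SNHG7 was at 93.3 CPM in EA.hy926 CA replicate 2, against 79.4 to 81.5 in the other 3. PFKFB3 was at 526 CPM in A549 CA replicate 2, against 615 to 633 in the other 3. ACTG1 was at 5088 CPM in A549 SOAβPIN-SP replicate 1, against 5837 to 5924 in the other 3. BCL10 was at 40.3 CPM in EA.hy926 CA replicate 3, against 35.6 to 36.2 in the other 3. B3GNT2 was at 96.02 CPM in A549 SOAβPIN-SP replicate 2, against 83.9 to 84.3 in the other 3. MOB3A was at 15.97 CPM in EA.hy926 SOAβPIN-SP replicate 4, against 17.7 to 17.9 in the other 3. ZNF587B was at 10.4 CPM in A549 CA replicate 3, against 8.04 to 8.23 in the other 3. TIMP3 was at 10.6 CPM in A549 CA replicate 4, against 6.69 to 7.03 in the other 3. Replicates 1 to 4 are experiments 24, 38, 42 and 53 for CA and 34, 35, 37 and 38 for SOAβPIN-SP.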

How the results depend on the processing

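With the coculture as a replicate block 1205 genes were called, 1123 of them among the 1177. This fit gave no change within each line, so its classes reused the single-line changes of the main fit. All 56 opposite genes kept their call for the difference, and their number could not have been higher. Over the 11 alternatives other than leaving out single libraries or cocultures, the 64 named genes gave 673 values, of which 661 were called, 12 were not and 0 were reversed. AKR1B10 and ALDH3A1 lost 10 of these 12 calls, and NSDHL and ABCC2 lost 1 each, without the 2 libraries with most reads of the other line. The CPM minimum of the study's methods left 4722 genes and 506 calls, with 29 opposite, 204 A549-specific, 110 EA.hy926-specific, 10 same-direction and 153 passing only as a difference, which follows from the fewer genes tested. Library totals alone as the scale gave 606 higher and 635 lower calls against 738 and 439. Leaving out each library or coculture in turn gave 915 to 1264 calls, 44 to 68 opposite, 335 to 486 A549-specific, 260 to 355 EA.hy926-specific, 12 to 33 same-direction and 239 to 356 passing only as a difference. Of 1536 such values of named genes 58 were not called, in 10 genes, and 0 were reversed. Without those 2 libraries, an alternative chosen after seeing the data, 1214 genes were called and 64 were opposite, 49 of them among the 56. Depth limits low genes such as ABCC2, AKR1B10 and ALDH3A1 in EA.hy926 cells.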
